A study of Homo sapiens with 14 samples.

Results

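The genes of the proteins that build the cytosolic ribosome were examined for N6-methyladenosine (m6A) at single adenosines. Members were chosen by gene name: names starting with RPL or RPS and a digit, with RPLP0, RPLP1, RPLP2 and RPSA, and without the 10 RPS6K kinase genes and RPS19BP1. This gave 473 adenosines in 68 genes, of 407343 adenosines in 13744 genes. Of the 473, 132 (27.9%) in 42 genes lay in DRACH, the 5-base motif that METTL3 methylates (D is A, G or T, R is A or G, H is A, C or T), against 156317 (38.4%) over all genes. In 78 genes of mitochondrial ribosomal proteins, named MRPL or MRPS and a digit, 375 of 979 adenosines (38.3%) lay in DRACH.

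A cytosolic ribosome joins a small subunit, made with the RPS proteins, to a large subunit, made with the RPL proteins and the stalk proteins RPLP0, RPLP1 and RPLP2. Messenger RNAs of these proteins are short, abundant and built of short exons, and they start with a tract of pyrimidines through which mTOR signalling sets their translation. m6A is laid down by METTL3 with METTL14, and it is known to be dense in long exons and early in last exons and sparse close to exon junctions.

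Levels were measured with GLORI, in which glyoxal and nitrite turn unmethylated adenosine into a base read as G, while m6A is still read as A. A site's level is its A reads in percent of its A and G reads. The poly(A) RNA was from 6 human tumour lines treated for 24 h with DMSO, the solvent. They were OE21 from the oesophagus, A549 from a lung carcinoma, and SKOV3, EFO21, COV644 and CAOV3 from the ovary. CAOV3 cells also received 1 uM STM3675 for 24 h, in a series on inhibition of METTL3. Each of the 7 groups had 2 libraries, and the labels do not say that they came from separate cultures, so SDs measure the spread between libraries. The p-values of sites rest mostly on a spread between libraries that sites of like depth share, not on a site's own spread.

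The table lists an adenosine only where at least 1 DMSO library had 20 reads and a level of 25%, so an unlisted adenosine is not shown to be unmethylated, and treated libraries played no part in the listing. Reads at listed sites ran from 14047302 to 28663588 per library, and the members took 0.19% to 0.566% of them. Most non-DRACH adenosines are not methylated by METTL3. The median level of the listed ones with 20 reads in a library was 3.33% to 4.14% in the COV644 and OE21 libraries. It was 10.3% to 15.8% in the other DMSO libraries and 8.85% and 8.89% with STM3675. A DMSO library that had a site listed is high there by that rule, so the listing can raise these medians unequally between libraries. Its part in them was not tested. Reads at listed sites of the squamous genes KRT5, KRT14, TP63 and DSG3 were most numerous in OE21. Of the ovarian markers, PAX8 had 753 to 14292 reads in the 4 ovarian lines, 749 in OE21 and 132 in A549, and MSLN had 504 to 48379, 54 and 67. WT1 went the other way, with 1 to 61 reads in the ovarian lines, 52 in OE21 and 388 in A549, and MUC16 had no listed site. The lung gene NKX2-1 had 5 reads in A549, fewer than in COV644 (669), and SFTPB, SFTPC and NAPSA had no listed site. Ribosomal protein genes have many near-identical processed pseudogenes, and how reads with several matches were placed is not given in the sources used here, so every level below is uncertain to that extent.

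Of 77 core ribosomal protein genes, 40 had no listed DRACH adenosine. Among genes with any listed site, 42 of 68 members had a listed DRACH site, against 12926 of 13744 genes in the whole series. The core list held 77 genes (46 of the large and 31 of the small subunit). Of these, 37 had a listed DRACH site, 24 had listed sites outside DRACH only, and 16 had no listed site. Among the 16 were RPLP0, RPL3, RPL10, RPL10A, RPL24, RPL36A, RPL39, RPS6, RPS12, RPS13, RPS21, RPS27 and RPS29, which include RPS6, the S6 kinase substrate, and RPL3, a protein of the peptidyl transferase region. Among the 24 were RPLP2, RPL5, RPL6, RPL7, RPL11, RPL12, RPL15, RPL17, RPL21, RPL26, RPL27, RPL31, RPL34, RPL37A, RPL38, RPSA, RPS3A, RPS7, RPS9, RPS15, RPS18, RPS20 and RPS27A, with 1 to 6 sites each. RPL5 and RPL11, which bind MDM2 with 5S RNA, were in this group. A further 7 members lie outside the core list, as variants or relatives of core genes, and 5 of them had a DRACH site: RPL7L1, RPL22L1, RPL26L1, RPL36AL and RPL39L.

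Sites are given below with the 5 bases around the adenosine, as the table lists them. For 2 DRACH sites the surrounding bases could be read from RefSeq (GRCh38.p14), because they lie just inside the first exon. They are shown because their bases could be read. Neither passed the test with STM3675, described further on. They do not stand for all sites that did not pass, since only 4 of 91 tested member DRACH sites lay in first exons. The 5 motif bases are in capitals, with the measured adenosine in their middle.
RPS10, chr6:34426034-34426062, minus strand: agccccggtaccGGACCctgcagccgcag
RPS28, chr19:8321497-8321525, plus strand: ctcctctccgccAGACCgccgccgcgccg
The RPS10 adenosine is base 22 and the RPS28 adenosine base 16 of the first exon. In all 9 member sites that fell in such a window, of 55 member genes with a window, the table's 5 bases equalled RefSeq's.

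A gene was counted as carrying DRACH m6A in a group where at least 1 DRACH site had 20 reads and a level of 25% in both libraries. By this measure 29 of the 42 member genes with a DRACH site carried it in at least 1 of the 6 lines, and 12 carried it in all 6. The 12 were RPL4, RPL13, RPL13A, RPL28, RPL29, RPL36, RPL41, RPS15A and RPS24 of the core list, with RPL7L1, RPL36AL and RPL39L outside it. RPL26L1 and RPS16 carried it in 5 lines, all but COV644 and all but OE21 respectively. RPL7A, RPL35 and RPS23 were among those that carried it in 4 lines, RPL30 and RPS14 in 3, and RPL8, RPL37 and RPS3 in 2. In 1 line each it was carried by RPL22L1 and RPL23 (CAOV3), RPLP1 and RPS4X (A549), RPS10 (EFO21) and RPS28 (SKOV3). RPLP1 had reads enough in A549 alone among the DMSO lines. The 13 genes with listed DRACH sites that carried it in no line were RPL9, RPL14, RPL18, RPL19, RPL22, RPL23A, RPL27A, RPL32, RPL35A, RPS2, RPS19, RPS25 and RPS26. Depth limited some of them: RPL14 had a covered DRACH site in 1 line, RPL27A in 2, RPS26 in 3 and RPL32 in 4. The list is not one of genes without m6A. In the test per gene with STM3675, given below, RPL9, RPL22, RPL23A, RPL35A and RPS19 fell. RPL18, RPL19, RPL32, RPS2, RPS25 and RPS26 did not pass it, and RPL14 and RPL27A were not tested.

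In each line a smaller share of the member genes than of all genes carried DRACH m6A, and no test of that difference was made. The share was 24 of 41 covered member genes in A549 (85.6% over all genes), 20 of 38 in CAOV3 (86.9%), 15 of 34 in COV644 (84.4%), 21 of 37 in EFO21 (82.1%), 14 of 36 in OE21 (81.5%) and 22 of 37 in SKOV3 (83.2%). As shares these are 38.9% (OE21) to 59.5% (SKOV3), and in CAOV3 52.6%, beside 82.4% (61 of 74) of mitochondrial ribosomal protein genes there. The number of DRACH sites moved with these shares: genes with a listed DRACH site had a mean of 3.14 of them among the members and 5 among mitochondrial ribosomal protein genes, and genes with a tested one had 11.5 over all genes. Its part in the shares was not tested. With STM3675, 6 of 41 covered member genes carried it, or 14.6%, against 17.3% over all genes. RPL7A, RPL8, RPL28, RPL30 and RPL35 were among the 6.

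**Figure D1:**
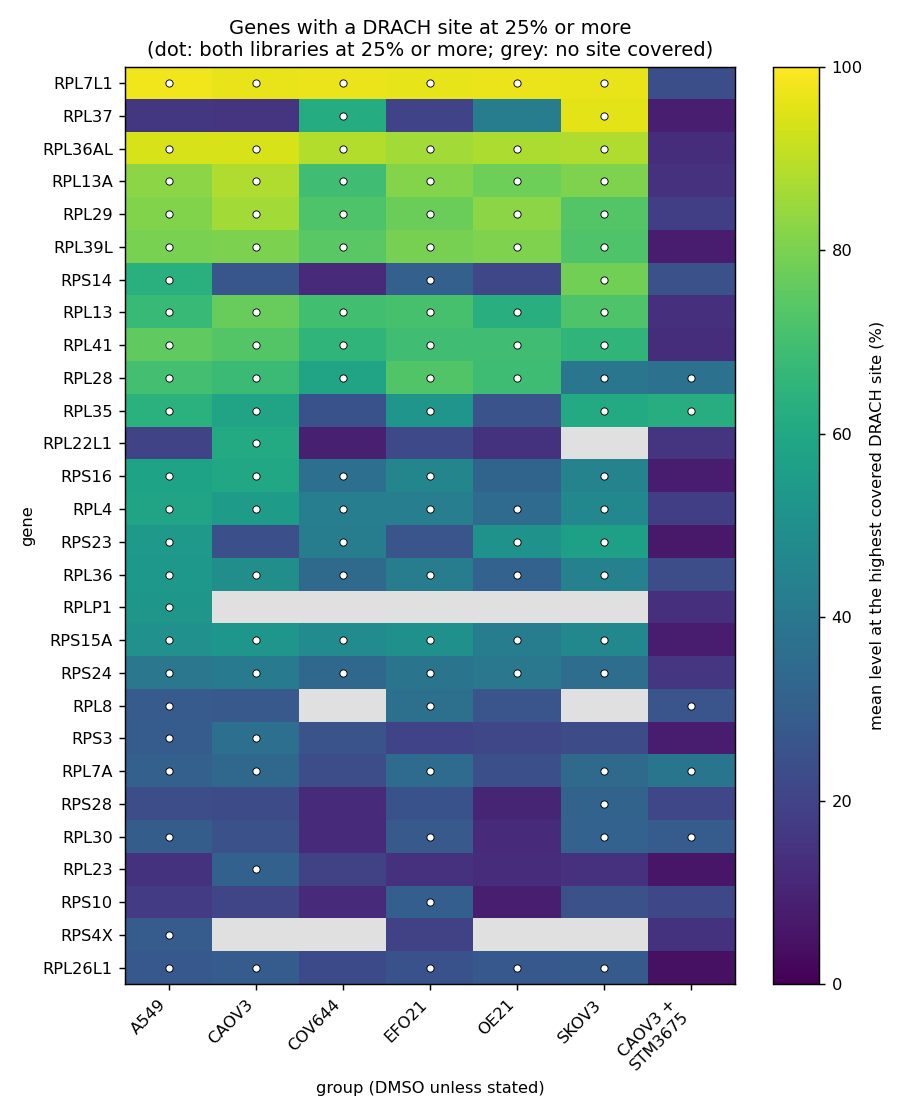
Mean level (percent, colour) at the highest covered DRACH site of 28 of the genes (rows) that carried DRACH m6A in at least 1 DMSO line, by group (columns); dots mark groups where both libraries reached 25%, and grey marks groups with no site covered. In the STM3675 column only RPL28, RPL35, RPL8, RPL7A and RPL30 have a dot. The highest site was taken in each group by itself. A row can thus hold different adenosines, and its colours do not always compare the same site between groups.

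Among sites with at least 50 reads in every DMSO library, the highest means over these libraries were found in relatives of core genes, RPL36AL and RPL7L1. RPL36AL, a near-identical relative of RPL36A, had an AAACT adenosine in exon 2, its last (GRCh38 chromosome 14, position 49618783, minus strand). Its level over the 12 DMSO libraries was 85.3% at lowest, 88.4% at the median and 95.0% at highest. In CAOV3 it stood at 95.0% and 92.8% with DMSO and at 7.36% and 6.43% with STM3675, from 485 to 1210 reads, and the groups did not overlap. The level fell by 87.0 percentage points ± 1.24 (SE). SEs here and below come from the spread between the 2 libraries of each group, not from the test. In the quasi-binomial F test moderated by limma the adjusted p was 1.3e-293. A nearby TGACA site at position 49619035 was lower, at 35.6% and 53.7% with DMSO and 12.9% and 13.4% with STM3675.

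RPL7L1, a relative of RPL7 that acts in ribosome assembly, held 18 DRACH sites along its last exon of 3645 nt on chromosome 6. Of 17 tested in CAOV3, 15 fell, and 6 were at 80% or more with DMSO. Its AGACA site at position 42887597 ran from 80.0% to 95.8% over the 12 DMSO libraries, with a median of 89.1%. In CAOV3 it read 80.0% and 91.4% with DMSO and 10.6% and 7.69% with STM3675. At 42886703, an AAACT site, DMSO libraries read 96.5% and 95.2% and STM3675 libraries still 25.0% and 23.2%. Not all sites of the exon were high: an AAACT site at 42887167, read at least 317 times in every DMSO library, stood at 18.4% to 28.1% in the 12 libraries, and it fell from 22.2% ± 0.0928 to 5.34% ± 0.404 (SD, n = 2, adjusted p = 3.9e-27 by the same moderated test). Within 1 exon the levels with DMSO thus spanned most of the scale.

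RPL39L, a relative of RPL39, a protein of the peptide exit tunnel, had a GGACA adenosine in its last exon (chromosome 3, position 187121053, minus strand). The lowest DMSO library was at 71.8%, the median at 79.5% and the highest at 81.5%. With STM3675 it read 8.30% and 7.95%, far below the 80.7% and 79.9% of CAOV3 with DMSO. RPL26L1 (GAACT, chromosome 5, position 172969606) was a site of middle level: 29.2% and 28.8% with DMSO and 4.66% and 4.71% with STM3675, from at least 1338 reads (adjusted p = 4e-67, moderated quasi-binomial test). RPL22L1, the relative of RPL22, had unequal values by line, with no test. Its GAACT site at chromosome 3, position 170866264, was at 48.6% in both CAOV3 DMSO libraries, at 15.4% and 24.6% in EFO21, and at 3.10% and 0.787% in A549. In A549 the 6 DRACH sites beyond it in the exon had at most 1 read, while a GGACT site nearer the exon's start (170866384) had 638 and 683 reads and levels of 20.1% and 21.1%. The GAACT site had under 20 reads in SKOV3, so it did not enter the test over lines. In CAOV3 it fell to 6.59% and 4.82% with STM3675 (adjusted p = 9.3e-36).

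Among the core genes of the large subunit, RPL13A, RPL29, RPL13, RPL41, RPL4 and RPL36 held the highest sites with at least 50 reads in every DMSO library, all in the last exon. Other large-subunit genes had higher sites than RPL4 and RPL36 at fewer reads. RPL13A, which also silences translation of inflammatory messages in the GAIT complex, had an AGACT site (chromosome 19, position 49491827, 99 nt into exon 8). Its DMSO libraries ran from 69.3% in COV644 to 91.0% in CAOV3, with a median of 80.7%. In CAOV3 it changed from 91.0% and 85.4% to 14.4% and 13.9%. A GGACT site 387 nt into the same exon, at 49492115, was at 56.6% and 61.3% with DMSO and 7.67% and 6.68% with STM3675. Between them a GGACA site at 49491929 was at 25.0% and 18.2% with DMSO and 17.8% and 7.14% with STM3675, and did not pass the test (adjusted p = 0.36).

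RPL29 held neighbouring sites, 8 nt apart, of unequal level. The GGACT site (chromosome 3, position 51993720, minus strand) ran from 71.5% to 86.4% over the DMSO libraries, and the GGACA site at 51993728 from 29.4% to 53.2%. With STM3675 the first read 17.1% and 19.9% and the second 11.7% and 16.5%. Both fell (adjusted p = 5.9e-117 and 3.8e-42 by the moderated quasi-binomial test).

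RPL13 carried a row of 6 deeply read sites between 173 and 419 nt into its last exon on chromosome 16. The highest of them, AGACA at 89563182, ran from 61.4% to 77.2% over the DMSO libraries, with a median of 70.5%. With STM3675 it read 13.9% and 12.9%, against 76.5% and 77.2% with DMSO. The other 5 had CAOV3 means of 33.9%, 35.8%, 57.2%, 61.6% and 67.9% with DMSO and of 6.64% to 11.3% with STM3675, and all 6 fell. Over its tested DRACH sites RPL13 stood at 55.2% ± 1.34 with DMSO and 8.62% ± 0.363 with STM3675.

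RPL41, the smallest ribosomal protein, had GGACT sites 127 and 267 nt into its last exon on chromosome 12 (positions 56117608 and 56117748). The second ran from 63.8% to 76.1% over the DMSO libraries, and it changed in CAOV3 from 70.9% and 75.5% to 13.2% and 13.0%. The first read 66.8% and 69.5% with DMSO and 12.3% in both STM3675 libraries. These were among the deepest members, with up to 10010 reads in a library; no count in the table exceeds 10040, and 3 member sites reached 9900 in at least 1 library.

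RPL4, which lines the exit tunnel, had 5 tested sites, of which 4 fell. Its GGACA site (chromosome 15, position 66499364) ran from 34.2% to 47.7% over the DMSO libraries and stood at 6.61% and 6.99% with STM3675, against 43.4% and 46.4%. RPL36 held the site that kept most of its level among those that fell. Its AGACT site (chromosome 19, position 5691617, 86 nt into exon 4) read 44.4% and 43.2% with DMSO and 23.1% and 24.3% with STM3675, so that 0.541 of the level was left. The groups did not overlap and the adjusted p was 5e-16 in the moderated quasi-binomial test, but it was 0.12 with limma on log2 odds. RPL28, with 18 listed DRACH sites in an annotated last exon of 3843 nt, had 6 tested, of which 4 fell. Its other sites were too thinly read in CAOV3 to be tested. One of them, GGACT at 55391787, 3545 nt into the exon, stood at 70.9% and 69.2% in A549 and at 54.8% and 62.2% in COV644, and at 3.85% and 3.57% with STM3675.

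In the small subunit 3 genes were among the 12 with the highest sites under the same minimum of reads. RPS15A had a GGACT site (chromosome 16, position 18782969) between 41.3% and 57.0% over the DMSO libraries, with 47.9% and 57.0% in CAOV3 and 8.92% and 7.34% with STM3675. RPS16 had a GAACT site (chromosome 19, position 39433207) that ran from 22.6% to 62.8% over the same libraries and read 7.88% and 7.27% with STM3675, against 62.8% and 56.6%. RPS24, whose last exons are alternatively spliced, was the exception in position: its AGACT adenosine lay in an internal exon of 210 nt, 201 nt from the exon's start (chromosome 10, position 78035711). It ran from 30.9% to 43.4% over the DMSO libraries, with a median of 38.3%, and read 15.1% and 12.4% with STM3675, against 38.9% and 43.4% (adjusted p = 2.6e-14). It was the single internal member site that fell. RPS3, a protein that also acts in DNA repair, had an AGACT site (chromosome 11, position 75405704) at 35.1% and 37.6% with DMSO and 10.1% and 4.96% with STM3675 (adjusted p = 1.6e-08 by the moderated test).

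**Figure D2:**
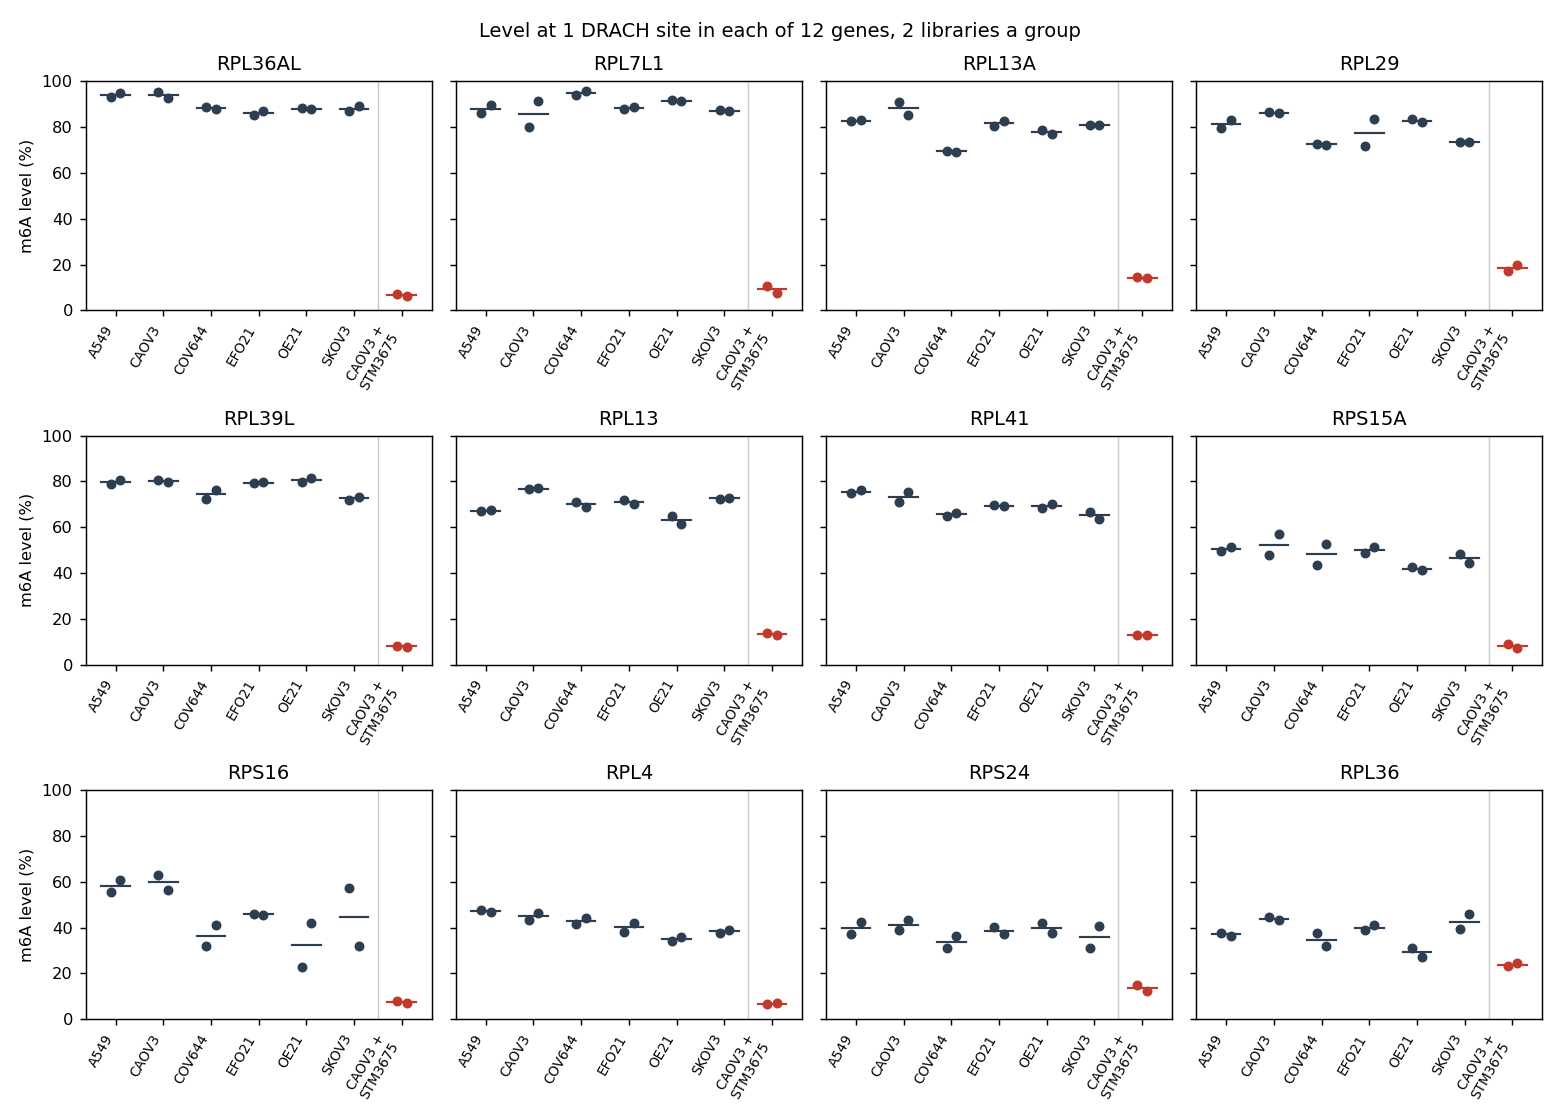
m6A level (percent) in each of 12 genes, 1 panel a gene, at the DRACH site with the highest mean over the DMSO libraries. Only sites that met the text's minimum of reads in every DMSO library were ranked. A gene can thus hold a higher site with fewer reads. Points are libraries, bars the mean of 2, dark for DMSO and red for STM3675 in CAOV3. In every panel both red points lie below all dark points, and RPL36 keeps the highest red level.

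The comparison of STM3675 with DMSO in CAOV3 asked where m6A levels changed under a compound from a series on METTL3 inhibition. Of 91 member DRACH sites with 20 reads in all 4 libraries, 59 in 24 genes fell (64.8%, against 73.4% of all DRACH sites tested), 32 did not pass the threshold, and 0 rose (0.0428% over all). No member DRACH site passed in the upward direction even at an unadjusted p under 0.05, and limma on log2 odds gave 0 as well. All 59 had both STM3675 libraries below both DMSO libraries, as had 99.8% of all DRACH sites that fell. At the median 0.206 of the DMSO level was left, with a range of 0.0734 to 0.541, and 0.188 at the median of all DRACH sites that fell. The mean over the 91 sites went from 40.1% ± 1.62 to 13.2% ± 0.44 (SD, n = 2), and over all 77040 DRACH sites from 45.4% ± 0.779 to 11.0% ± 0.0967. A further 41 member DRACH sites were too thinly read.

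Because CAOV3 DMSO libraries helped to list the sites, the count was repeated on those that no CAOV3 DMSO library had brought over 25%. There 3 of 18 member DRACH sites fell, beside 12.6% over all genes.

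With reads summed over a gene's tested DRACH sites, 24 of 38 member genes fell and 0 rose; over all genes 92.0% fell and 0.049% rose, and 0 member genes rose at an unadjusted p under 0.05. In the core list 19 of 33 fell, and outside it 5 of 5. The 24 share 22 genes with those that had a fallen site. RPL35 was among those that had a fallen site but did not fall as genes, and RPL35A and RPS23 fell only as genes. The median gene level changed from 28.5% to 10.2% in the members, from 41.7% to 8.94% in mitochondrial ribosomal protein genes and from 44.5% to 9.45% over all genes. In the mitochondrial list 65 of 71 genes fell.

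Other genes of translation were counted for comparison, from lists chosen with earlier results of these data known. Among elongation factors 12 of 13 genes fell, among initiation factors 29 of 36 fell and 1 rose (EIF3G, 11.5% to 18.0%, adjusted p = 0.016 in the moderated test), and among ribosome assembly factors 41 of 45 fell. Among other messages that start with a pyrimidine tract, 11 of 14 fell. These included TPT1 (63.2% to 12.5%) and EEF1A1 (61.3% to 6.03%), while PABPC1 stood at 18.2% and 17.6% (adjusted p = 0.84, moderated quasi-binomial test). FAU, which encodes a ubiquitin-like protein fused to a small-subunit protein and lies outside the name rule, had no listed site.

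The sites that fell lay nearly all in last exons and seldom in motifs that end in C. Of 75 tested member sites in last exons 58 fell (77.3%, against 81.3% over all genes), while of 16 in first or internal exons 1 fell (6.25%, against 55.9%). All 12 internal sites lay in exons under 250 nt, and over all genes 26.1% of DRACH sites in such exons fell. The 58 sites lay at a median of 348 nt from the start of the last exon, from 86 to 3547 nt, and 39 of them lay within 500 nt. These distances were not counted for all tested member sites or over all genes, so nothing can be drawn from them about which sites fell. Of 68 tested member sites in last exons of 250 nt or more 55 fell (81.4% over all genes), and of 7 in shorter last exons 3 fell (54.6%). By the fifth base of the motif, 44 of 49 sites ending in T fell (83.8% over all genes), 13 of 21 ending in A (63.9%) and 2 of 21 ending in C (50.0%). In last exons alone 2 of 10 sites ending in C fell (62.6% over all), and 56 of 65 ending in A or T (84.2%). The level with DMSO moved with these classes, and their parts in the calls were not tested. Sites ending in C averaged 23.3% with DMSO and 21.3% with STM3675, against 45.2% and 9.64% for sites ending in T. Of 26 member sites whose DMSO level was 50% or more, 25 fell (96.2%, against 99.9% over all).

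**Figure D3:**
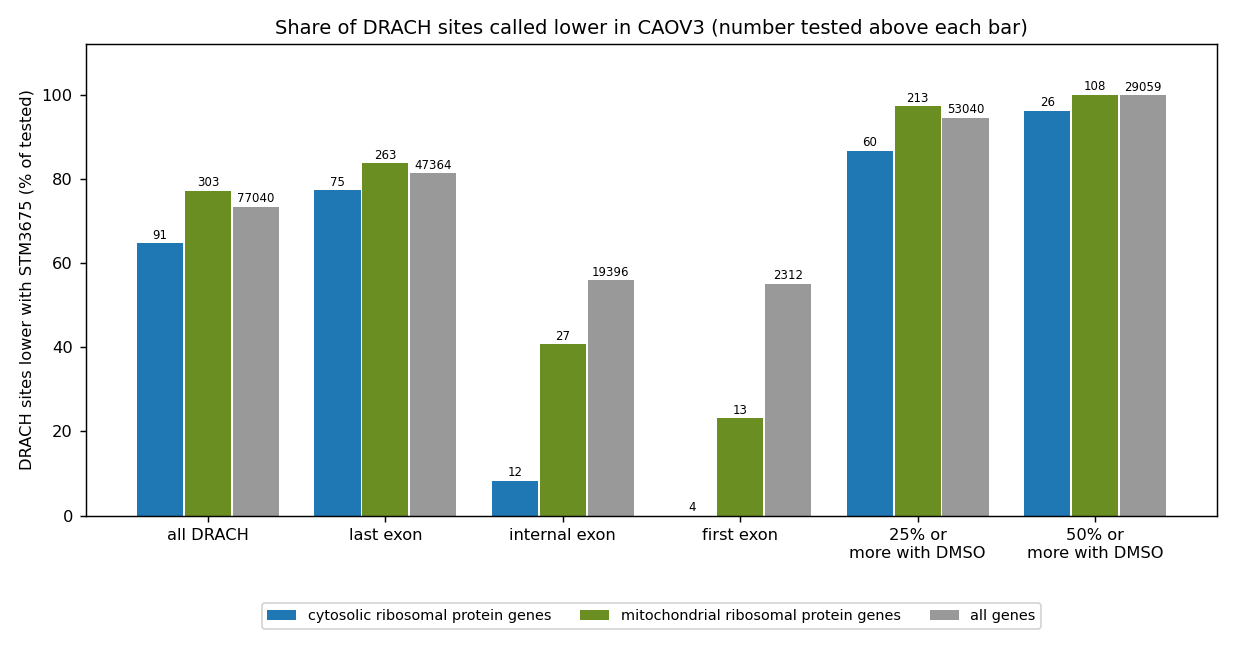
Share of tested DRACH sites (percent) that were lower with STM3675 in CAOV3, for member genes, mitochondrial ribosomal protein genes and all genes, by exon and by level with DMSO; the number tested stands above each bar. The member bars stand at 77.3% in last exons and 8.33% in internal exons, beside 81.3% and 56.0% over all genes.

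The 1 high site that did not fall was in RPL35, a large-subunit protein near the tunnel exit. Its GGACC adenosine lay 23 nt into a last exon of 185 nt (chromosome 9, position 124858045, minus strand). It read 65.7% and 50.8% with DMSO and 58.7% and 66.1% with STM3675 in CAOV3, from 35 to 63 reads, so the groups overlapped and the difference of 4.15 ± 8.31 percentage points (SE) lay within the spread (adjusted p = 0.69). An AGACA site 40 nt into the exon was at 29.6% and 23.6% with DMSO and 26.6% and 27.9% with STM3675. Its AGACT site at the exon's last base, 124857883, fell from 32.4% and 28.3% to 9.09% and 4.25% (adjusted p = 0.0048, moderated quasi-binomial test).

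Of the 32 sites without a call, 8 in 7 genes had 25% or more with DMSO, and 17 had under 50 reads in some library. Among member sites with a DMSO level of 25% or more and 50 reads in each library, the largest share of the level was kept at a GGACC site 67 nt into the last exon of RPL28 (chromosome 19, position 55388309), with 29.1% and 33.3% with DMSO and 42.4% and 32.7% with STM3675. RPL7A, a large-subunit protein, had a GGACC site in internal exon 3 (chromosome 9, position 133349689) at 33.3% and 34.6% with DMSO and 37.9% and 39.5% with STM3675. RPS14, the gene lost in the 5q- syndrome, had a GGACC site in internal exon 4 (chromosome 5, position 150445670) at 23.0% and 30.5% with DMSO and 23.7% and 26.2% with STM3675. RPL36 at 5691617, described above, kept less than these. For RPL28, RPL7A and RPS14 the adjusted p was 0.44, 0.55 and 0.68 in the moderated quasi-binomial test, and the SE of each difference was 5.30, 1.03 and 3.97 percentage points.

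Neither first-exon site printed above passed the test. The RPS10 site read 15.7% and 26.1% with DMSO and 18.9% and 24.9% with STM3675 (147 to 260 reads, adjusted p = 0.91). The RPS28 site read 15.4% and 30.4% with DMSO and 31.6% and 11.1% with STM3675 (26 to 57 reads, adjusted p = 0.95). Both genes are mutated in Diamond-Blackfan anaemia.

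**Figure D4:**
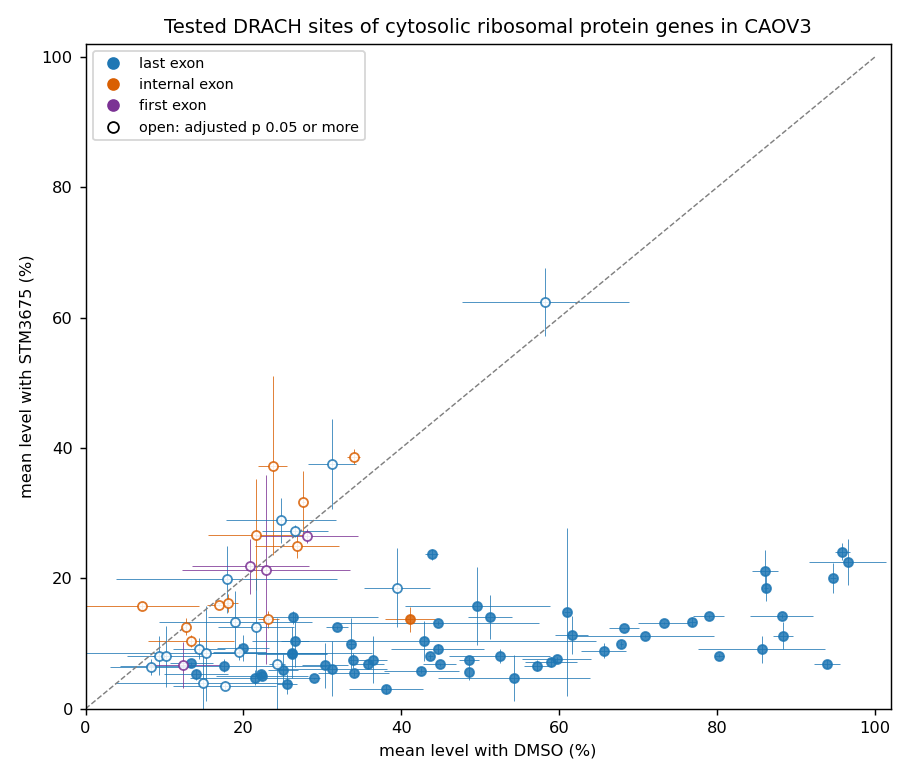
Mean level (percent) with STM3675 against mean level with DMSO in CAOV3 for 91 DRACH sites, with SD of 2 libraries as bars; colour gives the exon, open circles did not pass the test, and the dashed line marks equal levels. Filled points lie at or below 24.1% on the vertical axis, while most internal and first-exon points lie near the line, as does RPL35 at 62.4%.

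Outside DRACH, 5 of 191 tested member sites fell (7.43% over all such sites) and 1 rose (0.434%). DMSO and STM3675 medians were 13.3% and 11.8% in the members, and 11.9% and 9.20% over all non-DRACH sites. The clearest fall was at a GGATT site of RPL36AL, 128 nt into its last exon (position 49619013), with 25.9% and 28.9% with DMSO and 11.1% and 10.3% with STM3675 (158 to 415 reads, adjusted p = 5.8e-07, or 0.066 with limma on log2 odds). The other 4 were thinly read. RPL32 (AGATT, chromosome 3, position 12835982) read 44.4% and 25.0% with DMSO and 10.5% and 9.80% with STM3675, and lost the call when any 1 of the 4 libraries except CAOV3 DMSO replicate 2 was left out. The other 3 rest on 1 high DMSO library each: RPL36AL in its first exon (position 49620615) read 41.4% and 9.38%, RPS3 (GGATT, position 75405903) 6.38% and 29.7%, and RPL7L1 (position 42888434) 29.2% and 0 of 20 reads, which allows up to 15.0% (counting error only). With STM3675 they read 5.06% and 6.25%, 8.60% and 5.95%, and 0 of 54 reads (up to 5.56%) and 2.94%. Without DMSO replicate 1 the RPL36AL difference was -3.72 percentage points and the RPL7L1 difference turned to 1.47, and without DMSO replicate 2 that of RPS3 turned to 0.894. At the RPL36AL and RPS3 sites no other DMSO library with 20 reads reached 25%. The high library alone thus had them listed, which favoured a fall. Of 135 tested member non-DRACH sites that no CAOV3 DMSO library had brought over 25%, 0 fell. The site that rose was in RPS18, 27 nt into its last exon (position 33276417), from 10.7% and 10.6% to 17.9% and 19.2% (150 to 301 reads, adjusted p = 0.029). It passed neither with the replicate block (adjusted p = 0.062) nor without any 1 library (0.11 to 0.17).

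The lines were compared over 64 member DRACH sites with 20 reads in all 12 DMSO libraries. The CAOV3 DMSO libraries also served in the comparison above. By the moderated test over 6 lines 34 of 64 differed (39.2% of all DRACH sites tested) and 35 of 71 non-DRACH sites (36.6%). The spread of single sites was taken mostly from the trend with depth, so a site whose own libraries scatter is called too readily. Limma on log2 odds, which calls 0.966% of all DRACH sites, called 0 of 64, with 14 at an unadjusted p under 0.05. The range of the line means was 13.9 percentage points at the median of the member sites and 14.7 at that of all DRACH sites.

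Of the 34 called sites, 28 (82.4%) were lowest in COV644 or OE21, the lines whose non-DRACH levels were lowest, against 57.1% of called DRACH sites over all genes. CAOV3 was highest at 18 of them, and at 50.6% of called DRACH sites over all genes. The mean over the 64 sites was 40.5% ± 0.993 in A549, 43.2% ± 1.28 in CAOV3, 35.0% ± 0.402 in COV644, 38.4% ± 1.34 in EFO21, 34.2% ± 1.27 in OE21 and 39.0% ± 0.651 in SKOV3 (SD, n = 2). Over all 38621 DRACH sites the order was another: 43.6% in A549, 48.4% in CAOV3, 44.7% in COV644, 44.1% in EFO21, 40.3% in OE21 and 43.3% in SKOV3, so COV644 stood next to CAOV3. In the members the libraries of COV644 and OE21 overlapped, as did those of EFO21 and SKOV3, while those of CAOV3, A549 and these pairs did not overlap with their neighbours in the order; no test of these means was made. With each library's median level of listed non-DRACH sites subtracted, CAOV3 stayed highest (32.2%). COV644 (31.2%) and OE21 (30.3%) then stood above A549 (29.8%), EFO21 (27.1%) and SKOV3 (25.4%), so the order of the lines below CAOV3 turned. The listing can raise the subtracted medians unequally between lines, so this order holds for that subtraction only. With that subtraction limma called 3 of 64 member DRACH sites, and 14.1% over all.

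The largest range among called sites was that of the RPL35 GGACC site: 66.9% and 61.0% in A549, 65.7% and 50.8% in CAOV3, 53.8% and 50.9% in EFO21 and 71.1% and 50.9% in SKOV3, but 32.4% and 18.4% in COV644 and 28.3% and 23.2% in OE21 (34 to 181 reads, adjusted p = 5e-13). All 4 libraries of COV644 and OE21 lay below all 8 others. The same was seen at the last-exon DRACH site of RPL30, with 10.5% to 14.0% in the 4 libraries and 19.9% to 33.1% in the 8 (adjusted p = 4.7e-43). RPL36 at 5691845, TGACT, also had the 4 libraries (29.4% to 32.3%) below the 8 (39.6% to 57.0%), with a mean of 53.2% ± 5.27 in A549 and 30.7% ± 1.83 in COV644 (adjusted p = 0.013). In CAOV3 that site read 56.1% and 43.1% with DMSO and 11.5% and 20.0% with STM3675, and its fall lost the call without DMSO replicate 1 (adjusted p = 0.056) or STM3675 replicate 1 (0.12). The RPS10 site averaged 29.8% ± 1.5 in EFO21, 24.6% ± 2.14 in SKOV3 and 8.55% ± 0.243 in OE21 (adjusted p = 1.3e-07). RPS14 at 150445670 averaged 30.5% ± 4.04 in EFO21 and 8.93% ± 0.431 in COV644 (adjusted p = 0.0094).

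At the sites that follow, the libraries of COV644 and OE21 did not all lie below those of the other lines. RPS16 averaged 59.7% ± 4.38 in CAOV3 and 58.2% ± 3.61 in A549, and 36.5% ± 6.6 in COV644 and 32.2% ± 13.6 in OE21. SKOV3 read 57.4% and 31.8%, so that its libraries spanned most of the range between lines. RPL29 at 51993728 was at 49.3% and 53.2% in CAOV3 and at 30.1% and 29.4% in COV644, with OE21 at 42.7% and 44.9%, next to A549. RPL13 at 89563247 was highest in CAOV3 (56.0% and 58.4%) and lowest in EFO21 (35.7% and 36.8%), with all other libraries between 40.5% and 47.9%. At the AGACT site of RPL13A both COV644 libraries (69.5% and 69.3%) lay below the other 10.

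Set apart by their call in CAOV3, the member sites also differed in level in the other 5 lines. The call went with the CAOV3 DMSO level, at a median of 44.6% for sites that fell and 23.6% for those without a call. The other lines also helped to list the sites, so they are no independent check of this split. The 48 sites that fell had medians between 33.6% and 41.8% in the other 5 lines. The 16 without a call had a median of 22.9% in A549, 24.1% in EFO21 and 24.7% in SKOV3, but 10.8% in COV644 and 11.5% in OE21. Of these 16, 8 differed among the lines (23.6% of all DRACH sites without a call in CAOV3), and all 8 were lowest in COV644 or OE21 (89.2% over all genes). Member sites outside DRACH had medians of 13.8% in A549, 13.9% in CAOV3, 18.3% in EFO21 and 19.6% in SKOV3, and of 6.21% and 6.60% in COV644 and OE21. The non-DRACH level thus moved with the level of the sites without a call, and its part in them was not tested.

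**Figure D5:**
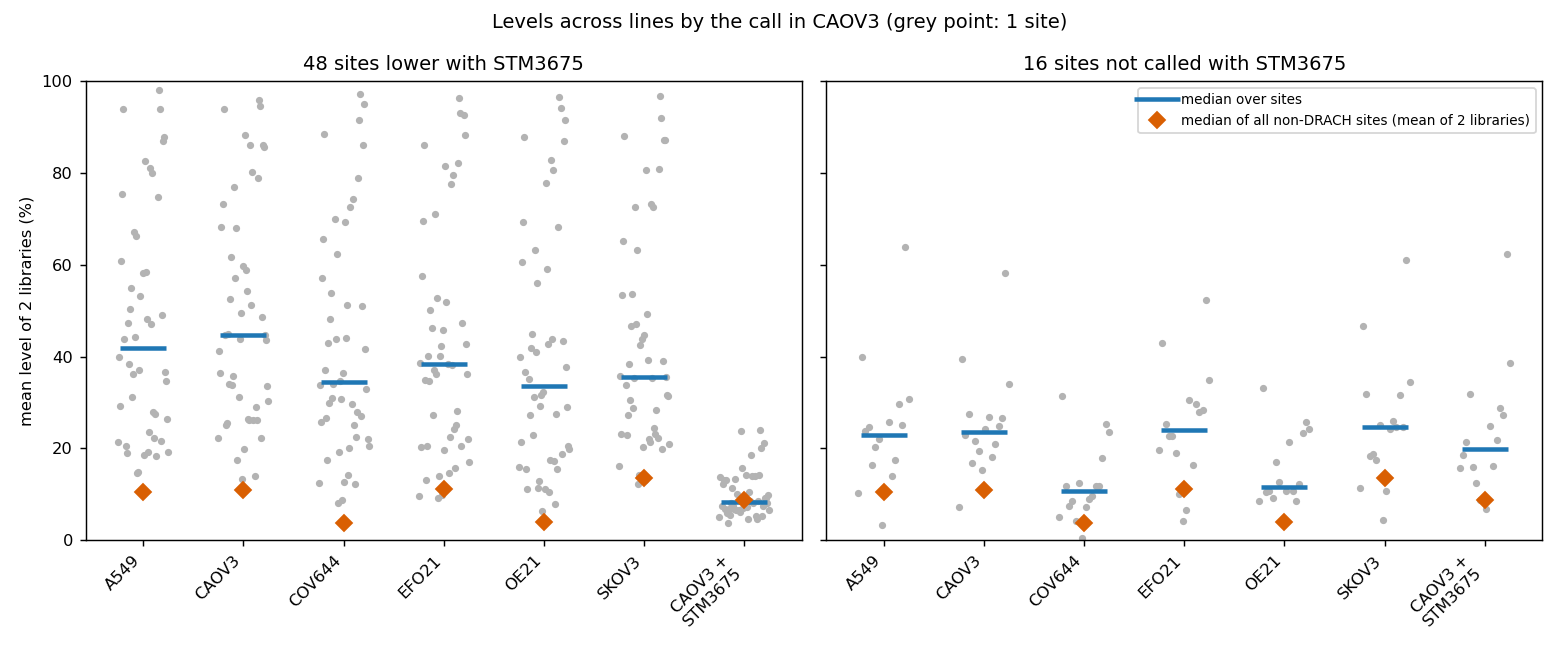
Mean level (percent) of each member DRACH site (grey) by group, for 48 sites that fell with STM3675 (left) and 16 without a call (right), with the median over sites (blue bar) and the median of all non-DRACH sites (orange diamond). On the right the median lies at 10.8% in COV644 and 11.5% in OE21, where the diamond is lowest too.

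Single sites of RPL37, RPS23 and RPS14 had high levels in other lines but too few reads in CAOV3 for the test. RPL37, with an annotated last exon of 7312 nt, had a GGACT site 4695 nt into it (chromosome 5, position 40827879) at 96.3% and 95.7% in SKOV3 and 57.1% and 66.7% in COV644, from at most 33 reads in a DMSO library. RPS23 had a GGACT site at 82274113, 2143 nt into its last exon, at 57.9% and 56.1% in SKOV3, 55.4% and 52.2% in A549, 52.7% and 50.0% in OE21, 39.3% and 45.2% in COV644 and 28.6% and 24.0% in EFO21, with fewer than 20 reads in CAOV3. The last exon of RPS14 held a GAACT site (position 150443983) at 63.6% and 60.6% in A549 and 64.5% and 92.9% in SKOV3, and at 2.13% and 7.41% with STM3675.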

How the data were processed

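The authors deposited 1 table for the series, with a count of A and G reads and the fraction of them read as A, per adenosine and library. The submitters' processing notes name Cutadapt, STAR and GRCh38, with no version and no further step. A reads were taken as the deposited fraction times the deposited count, which gave whole numbers within 1e-06 throughout, and levels are given as percent. The members and lists were chosen with earlier results of these data known.

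Sites with 20 reads in every library compared were tested across the whole table by a quasi-binomial logistic model per site, with dispersions moderated over sites by limma 3.58.1 (squeezeVar, trend on depth, floor 1; R 4.3.3), an F test and Benjamini-Hochberg adjustment; the threshold was 0.05. Genes were tested on reads summed over their tested DRACH sites. The moderation gave nearly all weight to the trend, so a site that scatters more than others of its depth is called too readily. Python 3.11.15 with numpy 2.4.6 and pandas 2.3.3 did the rest. The test was run on simulated counts with known changes. In the CAOV3 design it recovered 11% of sites set to 0.5 of their level and 47% of those set to 0.25. Over the lines it recovered 71% and 92%. It called 0 unchanged sites in the first and 9 in the second. In each design only 100 sites were set to each level, among 185923 sites in CAOV3 and 68873 over the lines. In the CAOV3 data 56562 DRACH sites fell, so the adjustment over sites was stricter in the simulation. The recovered shares therefore do not give the recovery in the data. A missing call by itself is still no sign of an unchanged level. All sites were simulated with 1 dispersion, so the run cannot show how sites that scatter more are called.

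Described in full were the 12 member DRACH sites with the highest mean over the DMSO libraries (50 reads, 1 per gene), the 10 called sites with the largest range of line means, sites that rose, the 5 at 25% or more that kept the largest share with STM3675, and the 5 largest falls outside DRACH. Some genes and their sites are not reported here. Other sites given with values were chosen after their values were seen. Same-numbered libraries did not deviate together (correlation of -0.003 in CAOV3 and -0.030 to 0.024 between lines), and the labels give only a number, so no pairing entered the tests. Libraries of a group differed by more than sampling noise. Upper limits at 0 reads are 3 counts over the reads and cover counting error only.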

Additional observations from a re-analysis of the deposited data

How the results depend on the processing

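In CAOV3 the count of 59 member DRACH sites that fell stayed between 46 and 64 with a minimum of 10 or 50 reads, 1 common dispersion, limma on log2 odds and the replicate block, and between 44 and 55 when 1 library was left out; it was 3 of 18 at sites that no CAOV3 DMSO library had listed, by construction fewer sites and lower levels. No member DRACH site rose under any of these, nor did a gene (0 to 0 without 1 library), and the 24 genes that fell were 21 to 26 under the alternatives and 21 to 24 without 1 library. With the replicate block as a term, which the labels support by number alone, 54 member DRACH sites, 1 non-DRACH site and 24 genes fell, 0 non-DRACH sites rose and 34 DRACH sites differed among lines. Outside DRACH the falls went from 5 to 3 (10 reads), 1 (50 reads) and 0 (limma, with 3 at an unadjusted p under 0.05, and sites listed by another line, with 1), and 1 to 4 without 1 library; the 1 rise went to 0 with limma (1 unadjusted), with sites listed by another line (4 unadjusted) and without any 1 library. The differences of RPL7L1 at 42888434 and RPS3 at 75405903 ran, without 1 library, from -27.7 to 1.47 and from -22.4 to 0.894 percentage points, turning positive without CAOV3 DMSO replicate 1 and 2, respectively.

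Among lines, 34 DRACH and 35 non-DRACH sites became 0 and 2 with limma, 3 and 3 with the background subtracted, 25 to 37 and 27 to 47 without 1 library, and 15 non-DRACH sites with 50 reads; the cause was not tested. Genes carrying m6A numbered, at a level of 10% and of 50%, 38 and 13 in A549, 33 and 11 in CAOV3, 25 and 9 in COV644, 32 and 9 in EFO21, 29 and 9 in OE21, 32 and 11 in SKOV3, and 26 and 1 with STM3675. From 1 library they numbered 27 to 29 in A549, 25 to 30 in CAOV3, 18 in COV644, 26 in EFO21, 16 to 21 in OE21, 27 to 29 in SKOV3 and 8 with STM3675.

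Mean levels over sites with 50 reads, medians over sites, background-subtracted means and the range without 1 library were 44.9%, 33.0%, 29.8% and 39.8% to 41.2% in A549, 47.2%, 35.7%, 32.2% and 41.8% to 44.4% in CAOV3, 40.0%, 29.2%, 31.2% and 34.4% to 35.5% in COV644, 42.2%, 34.1%, 27.1% and 37.2% to 39.3% in EFO21, 38.9%, 25.6%, 30.3% and 33.3% to 35.1% in OE21 and 42.2%, 32.4%, 25.4% and 38.6% to 39.1% in SKOV3. Over the sites tested in CAOV3 they were 43.2%, 33.0%, 29.1% and 38.8% to 41.4% with DMSO, and with STM3675 13.0%, 10.3%, 4.34% and 12.9% to 13.5%. Depth limits the rest: 41 of 132 member DRACH sites were too thinly read in CAOV3, and 17 of the 32 without a call had under 50 reads in a library.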
